A study of Homo sapiens with 2 samples.

Results

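The core genes of the circadian clock were read in SF-539 cells, a human glioblastoma line, with and without knockdown of FKBP9, a peptidyl-prolyl isomerase of the endoplasmic reticulum. The genes were taken by name: PER2, PER3, CRY1, CRY2, CLOCK, NR1D1, NR1D2, DBP and TEF, together with the partner of CLOCK, which the deposited table lists under its older symbol ARNTL (now BMAL1). All 10 were found among the 58735 genes of the table, and all 10 were among the 13066 genes with at least 50 fragments in both libraries together, which are called tested genes here. Both groups were SF-539 cells grown in DMEM with serum, infected with a pGIPZ lentivirus and selected with puromycin as stable clones. The shControl cells carried the control hairpin, and the shFKBP9 cells carried a hairpin against FKBP9. The study made several hairpins against this gene, and which of them the sequenced cells carried is not given in the sources used here. Each condition had 1 library, so the spread between cultures is unknown and no p-value is given. The hour of collection and any synchronization of the cells are not given in the sources used here, so each value is a level at an unrecorded phase and carries no information on rhythm.

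The clock is a feedback loop of transcription. CLOCK and its partner bind E-box elements and switch on the PER and CRY genes, whose proteins return to the nucleus and block that same activation. A second loop joins through the nuclear receptors NR1D1 and NR1D2 (REV-ERBα and REV-ERBβ), which compete with the ROR receptors on ROR elements and repress the gene of the CLOCK partner. The PAR bZIP factors DBP and TEF act on D-box elements and carry the timing to output genes. Most mammalian cells hold this machinery, and in cultured lines the cells drift out of phase with each other unless they are synchronized.

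The shControl library held 18116873 fragments on genes and the shFKBP9 library 17158514. Levels are given as FPKM, in which the fragments of a gene are divided by its length and by the size of the library. FKBP9, the targeted gene, was at 49.8 FPKM in shControl and at 4.68 in shFKBP9, so 9.39% of its level was left. The labels describe epithelial glioma cells of the brain, but most markers of either kind were scarce. Of the 5 epithelial markers, KRT8 had 159 fragments in shControl against 129 in shFKBP9, while the others (EPCAM, CDH1, KRT18 and KRT19) had at most 14 in a library, with CDH1 at 0 and 1. Of the 5 glial markers, NES had 237 and 207 fragments, OLIG2 48 and 41, GFAP 43 and 29, SOX2 4 and 7, and S100B 0 and 1. Of the 5 mesenchymal markers, VIM, FN1, COL1A1 and CD44 were between 48.6 and 884 FPKM, while THY1 had 3 fragments and 1. The 4 blood markers summed to 15 fragments in shControl and 24 in shFKBP9. The 3 proliferation markers summed to 198 FPKM in shControl and 203 in shFKBP9. Of these, TOP2A was at 55.5 and 64.7, MKI67 at 34.3 and 34.0, and CCNB1 at 108 and 104.

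The promoters of the 10 genes were searched for the elements through which the loops are closed. RefSeq promoters on GRCh38.p14, from 250 bases before to 50 bases after the start site, were found for all 10 genes. Each gene was searched at a single promoter, so any other start sites of a gene were not covered. For PER2, CRY1 and ARNTL this window lies inside the span of the gene given below. Both strands were searched for the E-box CACGTG, for its variant CACGTT, for the D-box as TTATGTAA or TTACGTAA, and for the ROR element as TAGGTCA or TGGGTCA. None of these matches overlapped another. The sequences below are those that held a match, shown because each holds an element of the loop before, across or just after the start of a gene whose level is given here. Bases are written 5′ to 3′ on the strand of the gene and capitals mark the element.

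TEF, E-box 195 bases before the start (chr22:41367213-41367312, plus strand): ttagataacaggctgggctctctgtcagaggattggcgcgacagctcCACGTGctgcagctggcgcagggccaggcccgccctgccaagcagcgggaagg
PER2, E-box variant 197 bases before the start (chr2:238288755-238288854, minus strand): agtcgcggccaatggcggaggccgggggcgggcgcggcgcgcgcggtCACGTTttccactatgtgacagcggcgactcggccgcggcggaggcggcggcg
CRY1, E-box variant on the other strand 89 bases before the start (chr12:107093586-107093685, minus strand): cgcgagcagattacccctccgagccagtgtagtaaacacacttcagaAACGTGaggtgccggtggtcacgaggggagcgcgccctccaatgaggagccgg
NR1D1, E-box variant on the other strand 168 bases before the start (chr17:40100705-40100804, minus strand): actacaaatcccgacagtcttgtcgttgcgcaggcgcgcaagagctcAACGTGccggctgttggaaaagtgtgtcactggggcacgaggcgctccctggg
PER3, D-box 177 bases before the start (chr1:7784068-7784167, plus strand): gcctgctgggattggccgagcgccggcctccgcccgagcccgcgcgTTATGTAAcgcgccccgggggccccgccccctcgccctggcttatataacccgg
PER2, D-box beginning 3 bases before the start (chr2:238288595-238288624, minus strand): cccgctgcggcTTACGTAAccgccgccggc
ARNTL, ROR element at base 31 after the start (chr11:13277808-13277837, plus strand): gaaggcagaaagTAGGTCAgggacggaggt

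In all, 1 of the 10 promoters held the E-box CACGTG, against 7.26% of the 35116 promoters in the RefSeq table. The variant was found in 3 of the 10, against 5.34% of all promoters. A D-box was found in 2 of the 10, against 1.01%, and a ROR element in 1 of the 10, against 5.69%. The promoters of CRY2, CLOCK, NR1D2 and DBP held none of these letters in this window.

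The 10 genes were expressed at low to moderate levels in both libraries. In the order of shControl, TEF was the highest at 9.05 FPKM (95% exact Poisson interval 8.43 to 9.72), above 62.6% of the tested genes in mean level. NR1D2 followed at 6.13 (5.67 to 6.62) and NR1D1 at 5.54 (4.91 to 6.23). CLOCK was at 4.44, PER2 at 3.90, PER3 at 3.79, CRY2 at 3.77, CRY1 at 3.24 and ARNTL at 2.78. DBP was the lowest at 0.751 (0.603 to 0.924), above 9.32% of the tested genes. Intervals of single libraries, and those of the ratios below, cover counting error only.

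With the lengths of the table and the genes ordered in each library by its own levels, 5 of the 9 pairs of neighbours differed beyond counting error in shControl, and 4 of 9 in shFKBP9, where some of the pairs are other ones. In shControl, PER2, PER3 and CRY2 could not be ordered with these lengths: PER2 was at 1.03 times PER3 (95% interval 0.910 to 1.16), and PER3 at 1.01 times CRY2 (0.885 to 1.14). NR1D2 was at 1.11 times NR1D1 in shControl (0.960 to 1.28) and at 1.33 times in shFKBP9 (1.15 to 1.55), and the change of this ratio between the libraries, given further on, was within counting error. TEF stayed first and DBP last in both libraries, with ARNTL 3.71 times DBP in shControl (2.93 to 4.73) and 3.97 times in shFKBP9 (3.12 to 5.12). In shFKBP9, CRY1 stood in place 6, ahead of PER3 by a ratio of 1.09 (0.934 to 1.26), where in shControl it stood in place 8, after CRY2.

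The order depends on the gene length by which fragments are divided. The table counts every annotated exon of a gene, which gives DBP 6544 bases and ARNTL 6726, whereas their canonical transcripts in GENCODE release 44 have 2170 and 2787 bases. Divided by the canonical length, ARNTL stood at 6.72 in shControl, in place 3 instead of 9, and PER2 in place 9 instead of 5. DBP stood at 2.27 and was still the lowest, and TEF was still the highest at 9.74. In shFKBP9, TEF was then within counting error of NR1D2, at 1.10 times its level (95% interval 0.987 to 1.23). With these lengths the shControl levels of CRY2, PER3 and PER2 stood apart in that order, since PER2 was at 0.872 times PER3 (95% interval 0.771 to 0.987) and PER3 at 0.853 times CRY2 (0.750 to 0.970). NR1D2 was above NR1D1 in both libraries, at 1.17 times in shControl (1.01 to 1.35) and 1.41 times in shFKBP9 (1.22 to 1.63). The ratio between the libraries is the same with either length.

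**Figure D1:**
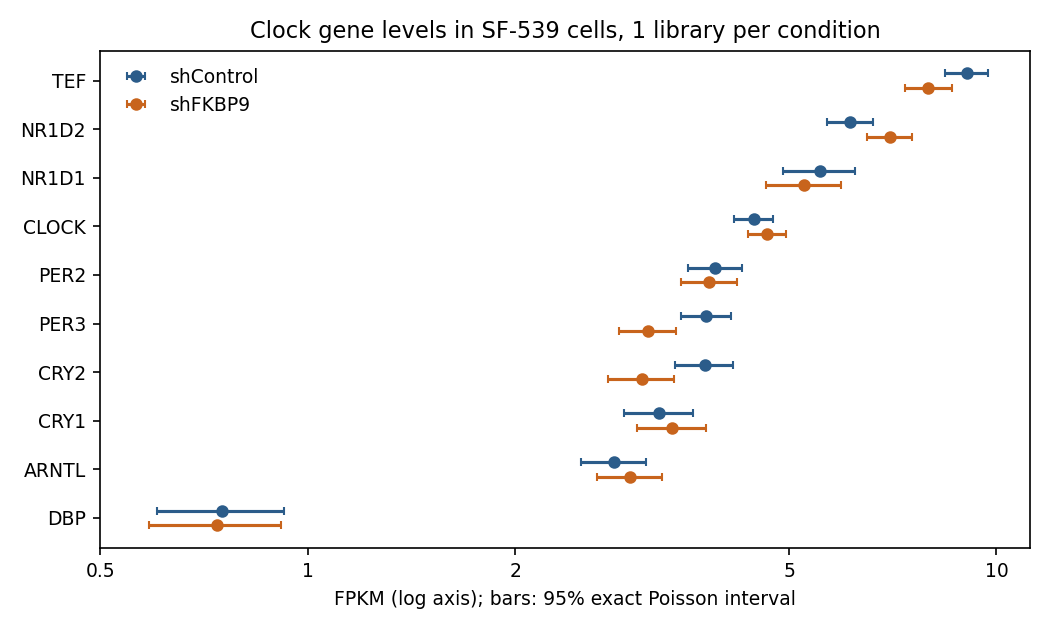
FPKM of the 10 clock genes on a log axis, shControl in blue and shFKBP9 in orange, 1 library each, with 95% exact Poisson intervals of the fragments. The levels of both libraries lie close together for every gene, from DBP at 0.751 and 0.739 to TEF at 9.05 and 7.97.

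None of the 10 clock genes differed by 1.5-fold or more between shFKBP9 and shControl. Among all tested genes, 3.46% were past 1.5-fold and 0.513% past 2-fold, as the log2 ratio of FPKM with 0.1 added to both libraries. Of the 10 genes, 9 had at least 500 fragments, and among the 8553 genes with that many the shares were smaller, at 0.994% and 0.105%. The largest differences were lower levels of CRY2 and PER3, both repressors of the loop, and of TEF, and a higher level of NR1D2. Over the 10 genes the median log2 ratio was -0.02, beside -0.02 over all tested genes, with 4 genes higher and 6 lower. In these bulk libraries, fewer cells that express a gene and less RNA per cell cannot be told apart.

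A 95% exact Clopper-Pearson interval from the fragments left out 0 for 4 of the 10 genes. Such intervals are narrow at this depth, and they left out 0 for 38.0% of all tested genes. Among the genes with at least 500 fragments, whose intervals are narrower, the share was 48.3%. Below 0 lay 3 of the 10 genes, against 20.8% of all tested genes, and above 0 lay 1 of the 10, against 17.2%. Since the interval compares only those libraries, it does not include the spread between cultures, which could not be measured.

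**Figure D2:**
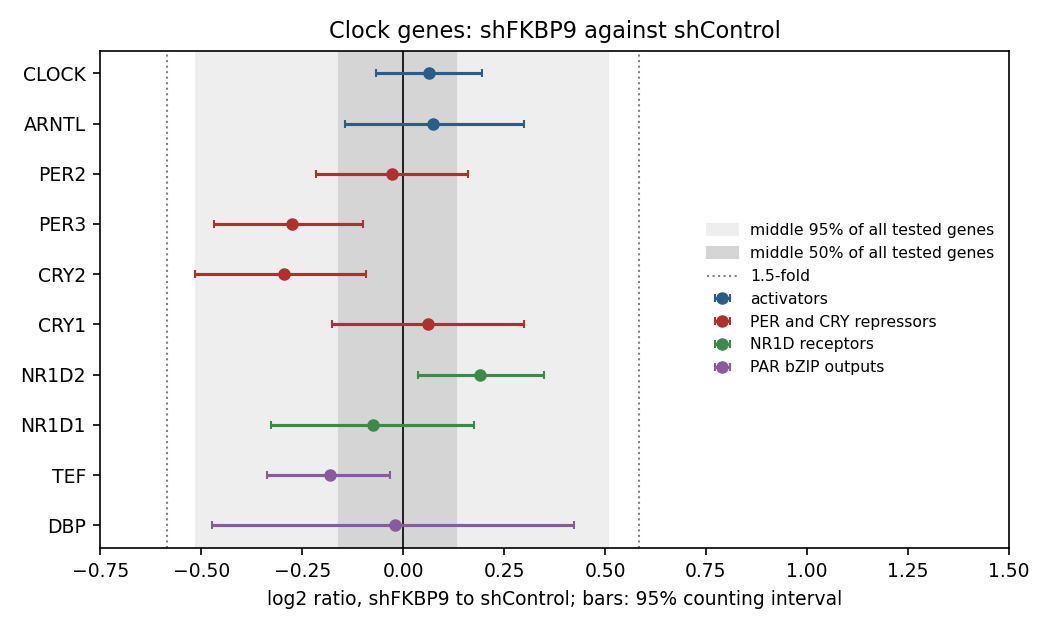
Log2 ratio of shFKBP9 to shControl for each clock gene, grouped and coloured by role, with 95% exact counting intervals. Dark and light grey bands hold the middle 50% and 95% of all tested genes and dotted lines mark 1.5-fold. All 10 points lie inside the light band, which runs from -0.51 to 0.51.

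Among the core genes, the activators CLOCK and ARNTL were nearly level between the libraries. CLOCK (ENSG00000134852, chromosome 4, 55427903 to 55547138, 23 exons in its canonical transcript), the bHLH-PAS factor that gives the activating complex its name, had 946 fragments in shControl and 938 in shFKBP9. Its FPKM was 4.44 and 4.65, a log2 ratio of 0.06 (95% interval -0.07 to 0.20). ARNTL (ENSG00000133794, chromosome 11, 13276652 to 13387266, 20 exons), its partner in that complex, had 339 fragments in each library. Its FPKM was 2.78 and 2.94, a log2 ratio of 0.07 (-0.14 to 0.30). No difference was detectable for either gene at this depth, and the intervals of both ended below 1.5-fold on either side. The ratio of the levels of CLOCK and ARNTL was 1.60 in shControl and 1.58 in shFKBP9 with the table's lengths, but 0.743 and 0.737 with the canonical lengths, so which of them is higher depends on the length used.

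Among the PER and CRY repressors, PER3 and CRY2 were lower in shFKBP9 beyond counting error, while the intervals of PER2 and CRY1 included 0. PER3 (ENSG00000049246, chromosome 1, 7784320 to 7845177, 22 exons), a PAS-domain partner of the CRY proteins that is thought to be less essential for the loop than PER2, had 556 fragments in shControl and 433 in shFKBP9. Its FPKM was 3.79 and 3.11, which is 17.9% lower, with a log2 ratio of -0.28 (95% interval -0.47 to -0.10). PER2 (ENSG00000132326, chromosome 2, 238244038 to 238290102, 23 exons), a limiting part of the repressor complex, had 486 and 452 fragments. Its FPKM was 3.90 and 3.83, a log2 ratio of -0.03 (-0.22 to 0.16), so no difference was detectable at this depth. The difference between the log2 ratios of PER2 and PER3 was 0.26 (-0.01 to 0.52), an interval that included 0. This difference, like those of the other pairs below, was taken from the fragments without the added 0.1. PER2 carries both an E-box variant and a D-box in the sequences above, and PER3 a D-box.

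CRY2 (ENSG00000121671, chromosome 11, 45847118 to 45883248, 12 exons), a flavoprotein repressor of CLOCK and its partner, had 423 fragments in shControl and 325 in shFKBP9. Its FPKM was 3.77 and 3.05, which is 19.0% lower, with a log2 ratio of -0.29 (95% interval -0.52 to -0.09). This was the largest difference among the 10 genes, yet 19.7% of all tested genes had a log2 ratio at least as far from 0. CRY1 (ENSG00000008405, chromosome 12, 106991364 to 107093829, 13 exons), its paralog, had 297 and 294 fragments. Its FPKM was 3.24 and 3.38, a log2 ratio of 0.06 (-0.18 to 0.30). The log2 ratios of CRY1 and CRY2 differed by 0.37 (0.04 to 0.69) when taken from the fragments, and the intervals of the other 4 pairs compared here included 0. How often such an interval leaves out 0 for other pairs of genes was not computed, while for single genes it did so in 38.0% of those tested. The level of CRY1 was 0.860 times that of CRY2 in shControl and 1.11 times in shFKBP9, or 0.971 and 1.25 times with the canonical lengths.

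Summed over PER2, PER3, CRY1 and CRY2, the fragments were 1762 in shControl and 1504 in shFKBP9, a log2 ratio of -0.15. Of these 4 genes, 3 were lower and 1 was higher, and the intervals left out 0 for PER3 and CRY2 alone. Summed over CLOCK and ARNTL they were 1285 and 1277, a log2 ratio of 0.07. Per length, the summed FPKM of the repressors was 2.03 times that of the activators in shControl and 1.76 times in shFKBP9. With the canonical lengths the ratio was 1.72 in shControl and was likewise smaller in shFKBP9.

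Of the NR1D receptors, NR1D2 was higher in shFKBP9 beyond counting error, while the interval of NR1D1 included 0. NR1D2 (ENSG00000174738, chromosome 3, 23945260 to 23980618, 8 exons), the heme-binding repressor REV-ERBβ, had 646 fragments in shControl and 700 in shFKBP9. Its FPKM was 6.13 and 7.01, which is 14.3% higher, with a log2 ratio of 0.19 (95% interval 0.04 to 0.35). A ratio at least as far from 0 was found for 38.0% of all tested genes. NR1D1 (ENSG00000126368, chromosome 17, 40092787 to 40100725, 8 exons), which encodes REV-ERBα, had 278 and 250 fragments. Its FPKM was 5.54 and 5.25, a log2 ratio of -0.08 (-0.33 to 0.18). The log2 ratio of NR1D2 was above that of NR1D1 by 0.27 (-0.03 to 0.57), which is within counting error. ARNTL, the gene that both receptors repress and that holds the ROR element shown above, had the log2 ratio of 0.07 already given.

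Of the PAR bZIP outputs, TEF was lower beyond counting error, and DBP had too few fragments for a difference of that size to be detectable. TEF (ENSG00000167074, chromosome 22, 41367333 to 41399326, 4 exons), thyrotroph embryonic factor, had 773 fragments in shControl and 645 in shFKBP9. Its FPKM was 9.05 and 7.97, which is 12.0% lower, with a log2 ratio of -0.18 (95% interval -0.34 to -0.03). A ratio at least as far from 0 was found for 39.8% of all tested genes. DBP (ENSG00000105516, chromosome 19, 48630030 to 48637438, 4 exons), D-box binding protein and one of the most strongly cycling transcripts in many tissues, had 89 and 83 fragments. Its FPKM was 0.751 and 0.739, a log2 ratio of -0.02 (-0.47 to 0.42), the widest interval of the 10. The difference between the log2 ratios of DBP and TEF was 0.16 (-0.32 to 0.64). TEF holds the only CACGTG among the 10 promoters.

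**Figure D3:**
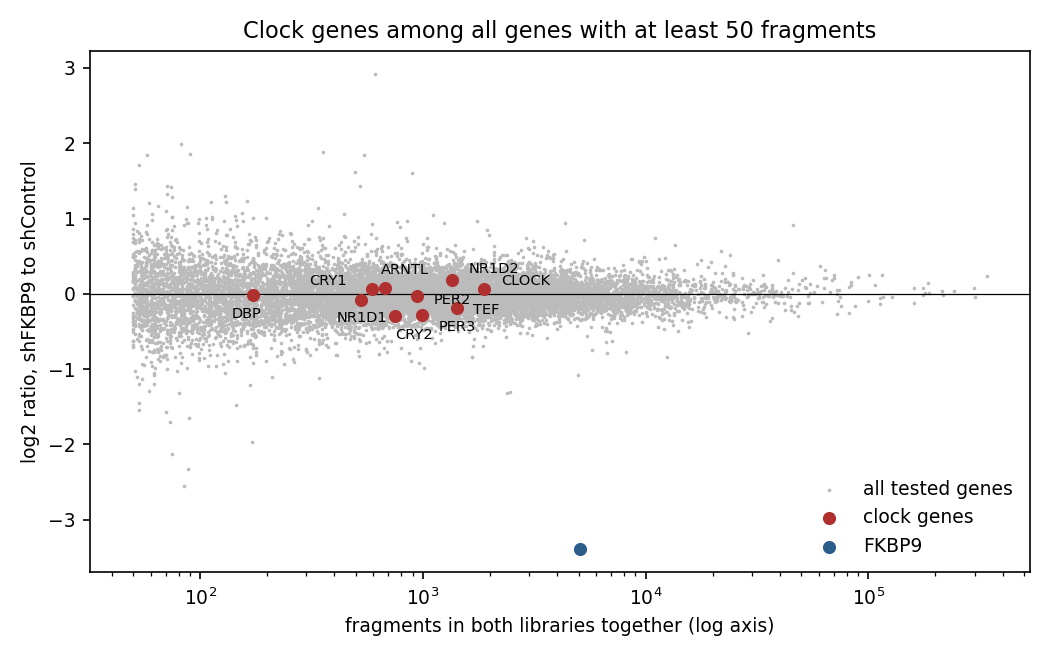
Log2 ratio of shFKBP9 to shControl against fragments in both libraries together (log axis) for all 13066 tested genes in grey, the 10 clock genes in red and FKBP9 in blue. The clock genes, from 172 fragments for DBP to 1884 for CLOCK, lie within the cloud at their depth, while FKBP9 lies at -3.38.

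Neighbouring genes limit what can be read for some members, since the strand setting of the authors' counting is not given in the sources used here. By coordinates, 14 genes of the table overlap a clock gene, and 4 of them had at least 50 fragments. The other 10 had at most 6 fragments in a library. NR1D1 ends within THRA, a thyroid hormone receptor gene on the opposite strand, with which it shares 18.0% of its exon bases in GENCODE release 44. THRA had 1269 fragments in shControl against 1092 in shFKBP9, a log2 ratio of -0.14 (95% interval -0.26 to -0.02). DBP shares 10.2% of its exon bases with SPHK2, a sphingosine kinase gene on the opposite strand with 379 and 264 fragments and a log2 ratio of -0.43 (-0.68 to -0.21). TMEM165, which overlaps CLOCK on the opposite strand, had 2385 and 2420 fragments and a log2 ratio of 0.10 (0.02 to 0.18). It shares 0.659% of the exon bases of CLOCK. NKIRAS1, on the opposite strand to NR1D2, had 118 and 135 fragments and shares 0% of its exon bases. PER3 shares 16.6% of its exon bases with opposite-strand genes, but of these the gene with the most fragments, UTS2, had 5 and 6. ARNTL shares 6.07% of its exon bases with another gene (ENSG00000290083), whose strand and reads were not analysed here. How far reads of a neighbour enter or leave the value of a clock gene was not tested.

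Beyond the 10 genes, a list of 30 further genes of the clock was read in the same way. The list held other activators and repressors, ROR receptors, PAR bZIP factors and their antagonist, kinases, ubiquitin ligases, cofactors and clock-controlled outputs. Of the 30, 26 had at least 50 fragments, and 0 of these 26 were past 1.5-fold in either direction, beside the 3.46% of all tested genes given above. All 26 had at least 500 fragments, and of the tested genes with that many 0.994% were past 1.5-fold. Their median log2 ratio was -0.01, with 12 higher and 14 lower. The interval lay above 0 for 5 and below 0 for 8 of the 26, beside 21.9% above and 26.4% below among the tested genes with at least 500 fragments. RORB, HLF, USP2 and FBXL21 did not reach 50 fragments. USP2 had 0 fragments in both libraries. RORA, a receptor that activates through ROR elements, had 624 fragments in shControl against 585 in shFKBP9, a log2 ratio of -0.02 (-0.18 to 0.15).

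The genes of this list that are named with values, RORA among them, were picked with their values in view. Of the 26, the lowest log2 ratio was that of PER1, a light- and hormone-responsive member of the PER family, with 608 fragments in shControl against 415 in shFKBP9. Its FPKM was 4.80 and 3.45, a log2 ratio of -0.46 (95% interval -0.66 to -0.29), and 6.60% of all tested genes had a log2 ratio at least as far from 0. The middle 95% of the tested genes with at least 500 fragments ran from -0.38 to 0.39, and PER1 was the 1 gene of the 26 outside it. BTRC and FBXW11, the ligase subunits that recognize phosphorylated PER proteins, were at -0.02 (-0.25 to 0.20) and -0.23 (-0.35 to -0.11).

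The list held 2 alternative activators. ARNTL2, a paralog of ARNTL, was at 6.61 FPKM in shControl and 8.06 in shFKBP9, a log2 ratio of 0.28 (95% interval 0.15 to 0.42). NPAS2, which can stand in for CLOCK, was at 2.25 and 2.58, a log2 ratio of 0.19 (0.02 to 0.38). CIART, a repressor that binds the CLOCK complex, was at 4.71 and 5.88 FPKM, a log2 ratio of 0.31 (0.06 to 0.58). BHLHE40, a repressor that competes for E-boxes and the most abundant of the listed genes, was at 91.2 and 91.9 FPKM, a log2 ratio of 0.01 (-0.04 to 0.06). Its paralog BHLHE41 was at 0.10 (-0.05 to 0.26). TIMELESS, also listed with the repressors, had 1892 fragments against 1576, a log2 ratio of -0.19 (-0.28 to -0.09).

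Of the 4 kinases listed, CSNK1D and CSNK1E, which phosphorylate PER proteins, had log2 ratios of -0.08 (95% interval -0.16 to -0.01) and -0.10 (-0.19 to -0.01). CSNK2A1 was at -0.05 (-0.17 to 0.07) and GSK3B at 0.08 (-0.02 to 0.18), with intervals that included 0. NFIL3, which opposes the PAR bZIP factors at D-boxes, was at 19.6 and 18.2 FPKM, a log2 ratio of -0.11 (-0.26 to 0.05). NAMPT, the enzyme of NAD salvage, was at 41.2 and 47.1 FPKM, a log2 ratio of 0.19 (0.15 to 0.24). WEE1, the mitotic inhibitor kinase, was at 0.12 (-0.01 to 0.25). KLF9 was at 0.35 (0.11 to 0.61) and PPARA at -0.20 (-0.40 to -0.03).

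**Figure D4:**
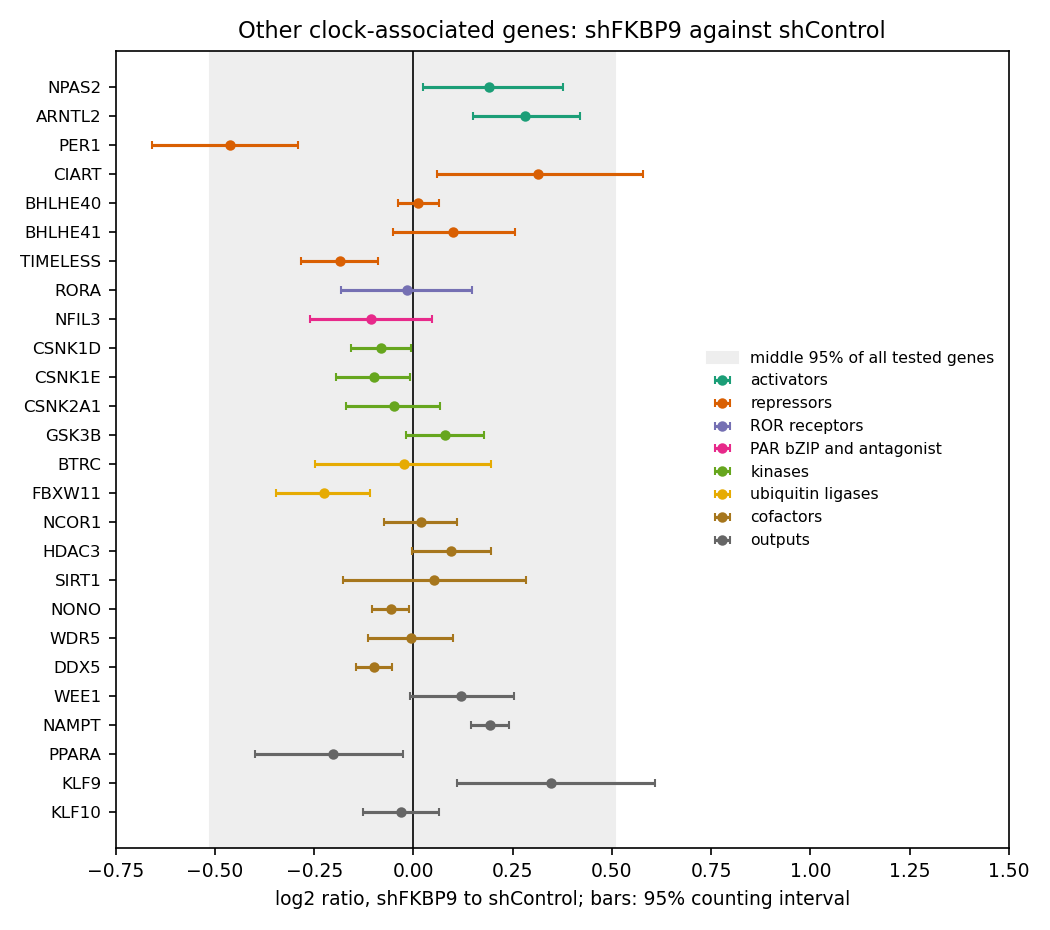
Log2 ratio of shFKBP9 to shControl for the 26 further clock-associated genes with at least 50 fragments, coloured by role, with 95% exact counting intervals and the middle 95% of all tested genes in grey. The points run from PER1 at -0.46 to KLF9 at 0.35, and all 26 lie inside the grey band, which runs from -0.51 to 0.51. PER1 lies outside the narrower range of -0.38 to 0.39 that holds the middle 95% of genes with at least 500 fragments.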

How the data were processed

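The authors removed reads with adapters, undetermined bases or low quality, aligned paired-end reads to hg38 with HISAT2 2.0.5 and counted them per gene with featureCounts 1.5.0-p3. They deposited the values as FPKM, with 1 library per condition, and 0 further columns held values of a library. The annotation release is not given in the sources used here. The members and lists were chosen with earlier results of these data known.

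Each FPKM multiplied by its gene length was a whole multiple of 1 step per library, within 0.01 fragments plus rounding, for 100% of the values above 0, which gave the fragments. One fragment on 1 kilobase was worth 0.0552 FPKM in shControl and 0.0582 in shFKBP9. Ratios used FPKM with 0.1 added, and tested genes had at least 50 fragments in both libraries together. Exact 95% Poisson, Clopper-Pearson and conditional odds ratio intervals cover counting error only, since no test between conditions was possible. The rule for named genes took the 10 clock genes, FKBP9, genes of the further list past 1.5-fold, and overlapping genes. Since 0 genes of the further list were past 1.5-fold, those of it named in the text were chosen after their values were seen. FBXL21 was matched by its gene identifier, since the list used its newer symbol, and some genes of that list are not reported here. The recovery of fragments, the ratios and the intervals were tested on simulated data. Exon overlaps used GENCODE release 44, also on hg38. Calculations ran in Python 3.11.15 with scipy 1.17.1, pandas 2.3.3 and numpy 2.4.6, and plots were drawn with matplotlib 3.10.9.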

Additional observations from a re-analysis of the deposited data

How the results depend on the processing

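With 1 library per condition, no replicate could be left out and no paired analysis was possible because each group holds a single sample. Over 4 alternatives (1 or 0.01 added to FPKM, the median ratio of tested genes set to 0, and TPM), 40 of 40 values of single clock genes stayed within the counting interval, 0 changed sign, and the largest move was 0.06 on the log2 scale. The scalings shift all genes nearly alike, and the 3 other minimums cannot alter the ratio of a gene that passes them. The counts of clock genes and of the further list past 1.5-fold were 0 under each. DBP did not reach the minimums of 1 FPKM or 500 fragments.

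The background moved more. Of the 13066 tested genes, 452 were past 1.5-fold and 67 past 2-fold. Adding 1 to FPKM gave 132 and 19. Leaving out the minimum gave 7195 and 4015 of 27477 genes, a minimum of 1 FPKM in either library gave 1106 and 537 of 12741, and one of 500 fragments gave 85 and 9 of 8553. Among 11575 protein-coding genes, 38 were past 2-fold. The use of canonical transcript lengths for levels was chosen after seeing the data. Depth limits DBP most.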
